A study of Mus musculus with 16 samples.

Results

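Oligodendrocytes wrap axons of the brain and spinal cord in myelin, and 33 genes of their lineage were followed here among the 39171 features of the expression table. They were picked by name as genes of the precursor, newly forming and myelinating stages, and all 33 were found by symbol. These genes, and the gene lists used below, were chosen with earlier results of these data known. The counts and medians below describe the chosen genes and are not an independent test. The cells were astrocytes sorted by flow cytometry out of thalamus and spinal cord of 4 C57BL/6 mice at postnatal day 15. All the mice were heterozygous for IL-33-mCherry, a red fluorescent reporter of the cytokine gene Il33, and carried Aldh1l1-GFP, a green reporter of an astrocyte gene. Each mouse and region gave a reporter-positive and a reporter-negative library, so that there were 4 groups of 4 libraries from the same 4 animals. Expression was deposited as FPKM, the fragments of a gene scaled by its length and by library size. How the GFP signal was used in sorting is not stated in the labels.

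In the lineage, precursors that carry the receptor Pdgfra pass through a committed stage marked by Gpr17 and a newly forming stage marked by Enpp6 and Bcas1. Olig2, Sox10 and Nkx2-2 set up the lineage, and Myrf switches on the genes of the mature cell. The mature cell makes myelin from structural proteins such as Mbp, from galactolipids made by Fa2h, Ugt8a and Gal3st1, and on a specialised cytoskeleton. In young mice myelin forms in both the spinal cord and the forebrain, and the spinal cord starts earlier. Some of these genes are not limited to the lineage: Olig2 is also found in some astrocytes and Cspg4 in pericytes.

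The libraries summed to 984986 to 2344483 FPKM and held 13260 to 14731 features at 1 FPKM or more, and the sequencing depth behind them is unknown. Between 43.7% and 73.9% of that sum came from mitochondrial transcripts, the most in both negative libraries of mouse 1. Some abundant transcripts are listed at 0, which can be a failed estimate, so that a 0 is not read as absence. The mitochondrial COX1 is at 0 in all 8 negative libraries and in 1 positive one, and at 18870 to 27854 FPKM in the others; the mitochondrial share of the negative libraries therefore holds no COX1. Malat1, a nuclear RNA, is at 0 in all 8 positive and 2 negative libraries. All 15 genes of an astrocyte list were detected in each group, with summed levels of 7156 to 17084 FPKM per library. Il33 overlapped between negative and positive libraries in both regions, where it lay between 13.3 and 36.5 FPKM in the negative libraries and between 23.8 and 31.98 FPKM in the positive ones. Values of a group are given in the order of mice 1 to 4.

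The genes lie on 14 chromosomes, and Olig2 and Olig1 are neighbours on chromosome 16, 41.1 kb apart. The sequence just upstream of the start given by RefSeq is shown for a few members whose levels moved very unlike each other. A RefSeq table (build GRCm38.p6) held such a sequence for 23 of the 33 genes. Cldn11 (chr3:31149670-31149919, plus strand) and Enpp6 (chr8:46986637-46986886, plus strand) are those of the 23 with the largest fall in the spinal cord. Nkx6-2 (chr7:139582798-139583047, minus strand) and Aspa (chr11:73324638-73324887, minus strand, in an intron of a longer Aspa transcript) are those with the smallest differences there. The bases that follow the Aspa sequence were found in no GENCODE transcript of Aspa, so that its start rests on RefSeq alone. Mobp (chr9:120149492-120149706, plus strand) was added after the matches were counted, because it held the most. Capitals mark ACAAAG on either strand, where its reverse complement is CTTTGT. They also mark ACAATG on either strand, where the reverse complement is CATTGT. The last run marked is CAGCTG, which reads the same on both strands.
Cldn11: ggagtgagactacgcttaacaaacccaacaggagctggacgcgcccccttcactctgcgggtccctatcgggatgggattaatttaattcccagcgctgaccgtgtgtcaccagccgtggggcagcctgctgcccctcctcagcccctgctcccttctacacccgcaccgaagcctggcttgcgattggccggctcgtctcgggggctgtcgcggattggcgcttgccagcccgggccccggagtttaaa
Enpp6: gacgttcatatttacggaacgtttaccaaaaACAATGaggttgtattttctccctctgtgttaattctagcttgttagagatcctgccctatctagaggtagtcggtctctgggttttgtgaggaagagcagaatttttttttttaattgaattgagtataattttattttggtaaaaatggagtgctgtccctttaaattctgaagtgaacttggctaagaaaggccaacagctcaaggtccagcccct
Nkx6-2: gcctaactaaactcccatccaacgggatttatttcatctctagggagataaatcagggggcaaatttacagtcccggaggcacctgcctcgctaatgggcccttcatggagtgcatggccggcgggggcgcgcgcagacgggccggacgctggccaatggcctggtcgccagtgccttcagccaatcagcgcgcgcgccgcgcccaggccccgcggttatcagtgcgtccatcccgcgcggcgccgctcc
Aspa: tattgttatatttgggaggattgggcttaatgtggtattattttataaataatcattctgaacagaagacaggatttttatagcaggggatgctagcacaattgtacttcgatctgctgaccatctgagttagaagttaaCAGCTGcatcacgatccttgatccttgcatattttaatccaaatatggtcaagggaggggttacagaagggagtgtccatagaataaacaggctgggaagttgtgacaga
Mobp: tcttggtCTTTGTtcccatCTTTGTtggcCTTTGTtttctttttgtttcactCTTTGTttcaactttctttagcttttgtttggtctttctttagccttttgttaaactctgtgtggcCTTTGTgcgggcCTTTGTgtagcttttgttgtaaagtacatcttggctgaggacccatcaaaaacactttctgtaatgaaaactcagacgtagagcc
The first pair of letters is contained in sites of SOX factors and the last is an E-box, the kind of site bound by OLIG factors. Each was searched separately over 250 bases, so that matches may overlap. ACAAAG was present in 4 of the 23 sequences (17.4%) and in 16.5% of the 27025 sequences of the table. ACAATG was present in 5 (21.7%) against 11.0%, and CAGCTG in 1 (4.35%) against 12.8%. A match is a run of letters, not a bound site, and the Mobp sequence held 6 copies of CTTTGT.

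**Figure D1:**
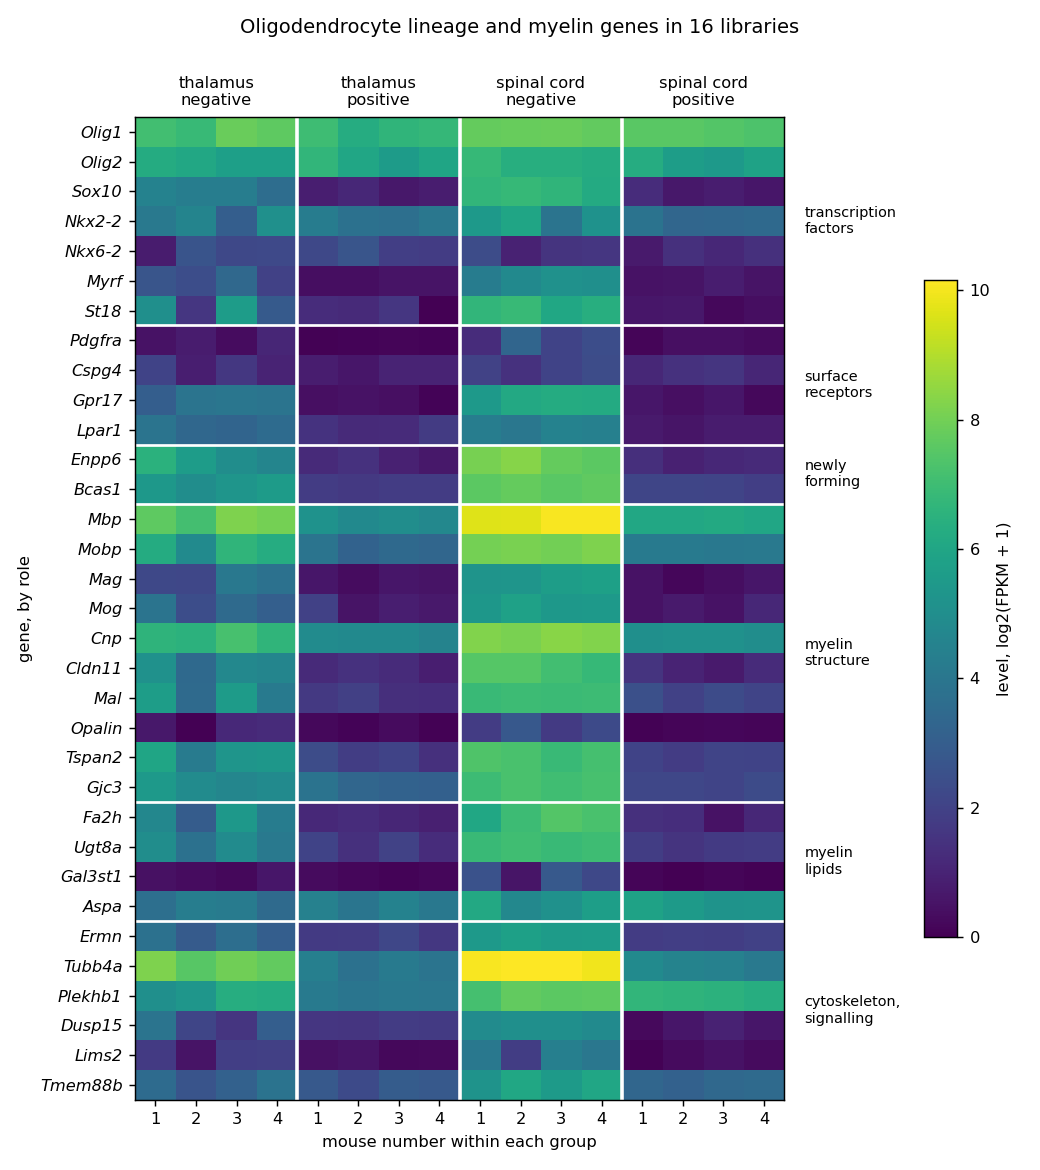
Level of each of the 33 genes in each of the 16 libraries, as log2(FPKM + 1), with genes in rows ordered by role and libraries in columns by group and mouse. The spinal cord negative libraries form the brightest block, with a median gene mean of 87.2 FPKM, and the positive libraries of both regions are dark, at 2.22 and 1.52 FPKM.

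The first question was how the genes differed between reporter-positive and reporter-negative cells of each region. In the thalamus 22 of the 32 genes that could be tested were lower in positive libraries, and 0 were higher. Of all 16340 features tested, 13.6% were lower and 11.6% were higher. The median change of the 32 genes was -2.13 on the log2(FPKM + 1) scale, beside 0.06 over all features. In the spinal cord 27 of the 32 were lower and 0 higher, where 10.5% and 9.04% of all features were. The median change there was -4.09, beside 0.09 over all features. Pdgfra, Opalin and Lims2 could be tested only because they reached 1 FPKM in the negative spinal cord libraries. Their spinal cord calls are therefore not independent of the filter. A gene is called where limma gave a Benjamini-Hochberg adjusted p under 0.05 over all features tested, and changes are given with their SE. At an unadjusted p under 0.05 limma also gave 0 genes higher in either region, and 26 and 29 lower. The share of all features at that threshold was not counted, here or in the later comparisons. In such libraries of many cells, fewer cells of the lineage and less RNA of these genes per cell cannot be told apart.

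The level that remained in positive libraries differed between regions. The mean of the positive libraries was 14.9% of the negative mean in the median gene of the thalamus and 2.54% in that of the spinal cord. It was under 5% for 4 genes in thalamus and 20 in spinal cord, and over 50% for 6 and 5. For 30 of the 33 genes the remaining share was smaller in the spinal cord, and Olig1, Plekhb1 and Cspg4 were the exceptions. Negative and positive libraries did not overlap for 21 genes in thalamus and 29 in spinal cord, where 14.2% and 14.1% of all features were lower without overlap. The positive library was the lower one in all 4 mice for 26 and 30 genes. No share of all features was counted for such agreement of the mice, here or between regions.

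**Figure D2:**
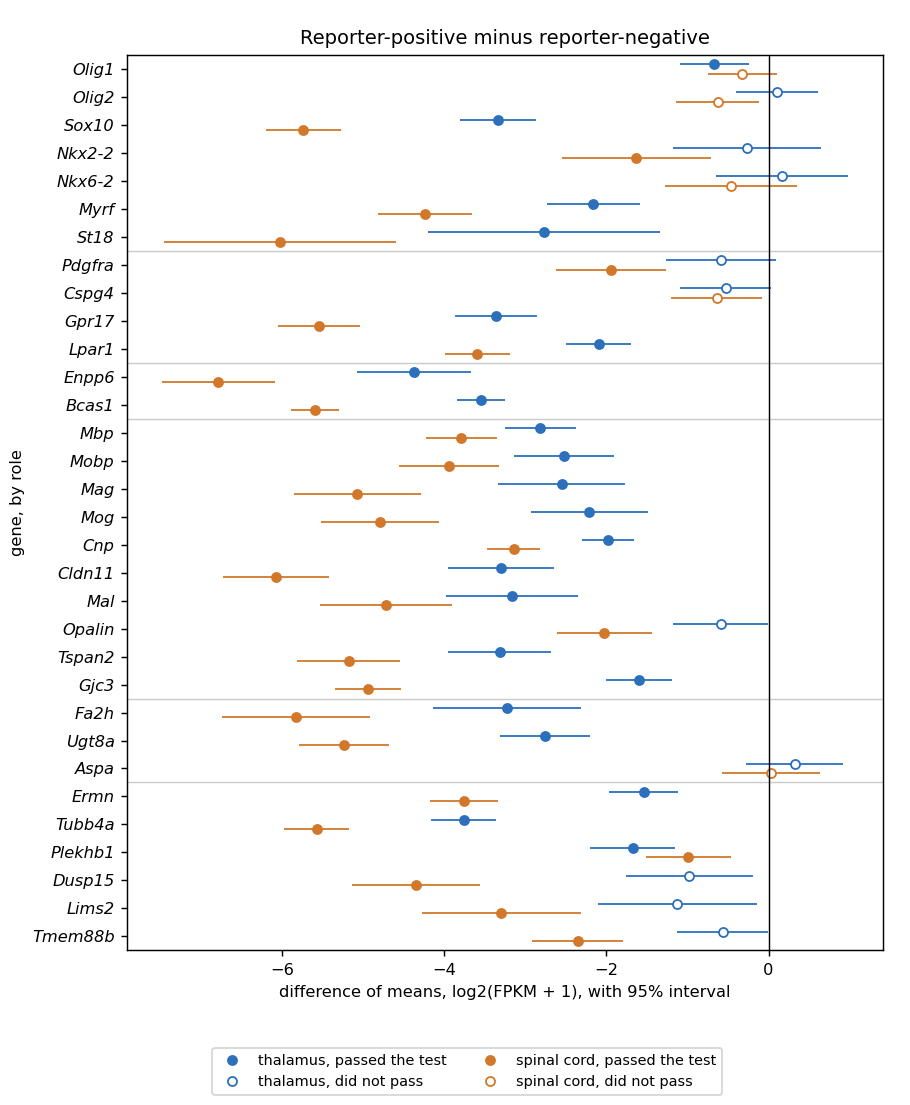
Difference of positive minus negative libraries for the 32 tested genes, as log2(FPKM + 1) with the 95% interval, thalamus and spinal cord side by side and filled where the test was passed. Most points lie left of 0 and the spinal cord points lie farther left, while Olig1, Olig2, Nkx6-2, Cspg4 and Aspa stay near 0 in the spinal cord.

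Of the 7 transcription factors, Sox10, Myrf and St18 fell in both regions, Olig1 passed the test in thalamus and Nkx2-2 in spinal cord. Sox10 (chromosome 15, 79154908 to 79165240), the HMG-box factor that drives myelin genes, measured 21.7, 19.1, 18.5 and 11.5 FPKM in the negative thalamus libraries and 0.816, 1.17, 0.567 and 0.745 in the positive ones. In spinal cord, Sox10 reached 101, 111, 98.9 and 74.2 FPKM in the negative libraries and 1.48, 0.579, 0.778 and 0.528 in the positive ones. Every negative library lay far above every positive one, and the positive libraries of the regions were alike. Sox10 fell by 3.33 ± 0.22 (adjusted p 1.32e-07) in thalamus and fell by 5.74 ± 0.22 (adjusted p 3.13e-10) in spinal cord, which left 4.65% and 0.873% of the negative mean. Myrf, the membrane-tethered factor needed to turn on myelin genes, went from 5.58 ± 2.94 to 0.377 ± 0.0927 FPKM in thalamus and from 28.3 ± 7.26 to 0.518 ± 0.160 FPKM in spinal cord (SD, n = 4). St18, a zinc finger gene, varied widely between mice in negative thalamus libraries, at 32.7, 2.08, 47.8 and 6.33 FPKM. It was at 91.2 ± 21.9 FPKM in negative spinal cord libraries and at most 2.09 FPKM in any positive library, with 1 positive thalamus library listed at 0. St18 fell by 2.77 ± 0.67 (adjusted p 0.00783) in the thalamus, which missed the threshold when mouse 1 was left out (adjusted p 0.0554) or when only the thalamus libraries were fitted (0.0607).

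Olig1 and Olig2, neighbouring genes for basic helix-loop-helix factors of the early lineage, remained high in positive cells. Olig1 (chromosome 16, 91269772 to 91271933) measured 134, 116, 226 and 197 FPKM in the negative thalamus libraries and 129, 77.9, 99.1 and 107 in the positive ones. In spinal cord, Olig1 reached 218, 224, 232 and 213 FPKM in the negative libraries and 187, 187, 174 and 161 in the positive ones, the highest positive mean of the 33 genes. The thalamus libraries overlapped and those of the spinal cord did not. Olig1 fell by 0.67 ± 0.20 (adjusted p 0.0245) in the thalamus, a call lost without either negative library of mice 3 and 4 or either positive library of mice 2 and 3, with adjusted p of 0.0584 to 0.0781, and with libraries scaled to equal sums (0.124). Over all 30 alternative settings Olig1 passed in 22 there, with limma adjusted p of up to 0.19. Its spinal cord difference was -0.32 ± 0.20 (adjusted p 0.286), with a 95% interval of -0.75 to 0.11. The difference between the regions was 0.35 ± 0.28 (adjusted p 0.636).

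Olig2 (chromosome 16, 91225457 to 91228677) measured 74.9, 67.6, 53.1 and 51.9 FPKM in the negative thalamus libraries and 102, 63.7, 47.0 and 61.5 in the positive ones. In spinal cord, Olig2 reached 111, 80.8, 81.7 and 75.1 FPKM in the negative libraries and 77.7, 49.6, 43.1 and 56.8 in the positive ones. The ranges overlapped in both regions, and mouse 1 gave the highest value in each of the groups. The differences were 0.11 ± 0.24 (adjusted p 0.777) in thalamus and -0.63 ± 0.24 (adjusted p 0.0794) in the spinal cord. With the mouse as a block in the fit, the spinal cord difference passed the test (adjusted p 0.01), and the positive library was the lower one in every mouse there.

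Nkx2-2 (chromosome 2, 147177546 to 147194243), a homeodomain factor of precursors that enter differentiation, measured 16.1, 23.3, 7.23 and 32.9 FPKM in the negative thalamus libraries and 18.1, 12.7, 12.1 and 15.2 in the positive ones. In spinal cord, Nkx2-2 reached 44.6, 62.1, 14.1 and 35.7 FPKM in the negative libraries and 13.5, 9.33, 9.41 and 10.1 in the positive ones. Mouse 3 was low in both negative groups, and only the spinal cord libraries did not overlap. Nkx2-2 fell by 1.63 ± 0.43 (adjusted p 0.015) in the spinal cord, a call lost when mouse 1, 2 or 4 was left out (adjusted p 0.0738 to 0.123), and its thalamus difference was -0.27 ± 0.43 (adjusted p 0.684). The fall was not shown to differ between the regions (-1.36 ± 0.60 (adjusted p 0.311)). Nkx6-2, a homeodomain factor of myelinating cells, measured 0.724, 5.25, 3.61 and 3.69 FPKM in the negative thalamus libraries and 3.58, 5.42, 2.65 and 2.47 in the positive ones. In spinal cord, Nkx6-2 reached 4.19, 0.979, 1.88 and 2.05 FPKM in the negative libraries and 0.665, 1.65, 1.17 and 1.63 in the positive ones. All these values were low and negative and positive libraries overlapped in each region, and the differences were 0.17 ± 0.38 (adjusted p 0.779) in thalamus and -0.46 ± 0.38 (adjusted p 0.438) in the spinal cord.

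Among the 4 surface receptors, Gpr17 and Lpar1 fell in both regions and Pdgfra in the spinal cord. Gpr17 (chromosome 18, 31942997 to 31949636), a G protein-coupled receptor of committed precursors, measured 7.27, 13.9, 14.8 and 14.2 FPKM in the negative thalamus libraries and 0.323, 0.411, 0.327 and 0.0748 in the positive ones. In spinal cord, Gpr17 reached 43.3, 69.3, 75.0 and 73.2 FPKM in the negative libraries and 0.523, 0.351, 0.545 and 0.168 in the positive ones. Mouse 1 gave the lowest negative value in both regions, and no positive library came near it. Gpr17 fell by 3.36 ± 0.24 (adjusted p 2.23e-07) in thalamus and fell by 5.54 ± 0.24 (adjusted p 9.96e-10) in spinal cord. Lpar1 (chromosome 4, 58435255 to 58553898), a receptor of lysophosphatidic acid, measured 14.1, 9.44, 8.75 and 10.8 FPKM in the negative thalamus libraries and 1.81, 1.34, 1.39 and 2.44 in the positive ones. In spinal cord, Lpar1 reached 19.0, 15.2, 21.5 and 20.4 FPKM in the negative libraries and 0.683, 0.474, 0.715 and 0.732 in the positive ones. The groups were separate in both regions, and 16.2% of the negative mean remained in the thalamus against 3.42% in the spinal cord. Lpar1 fell by 2.10 ± 0.19 (adjusted p 2.32e-06) and fell by 3.59 ± 0.19 (adjusted p 7.66e-09) in the same order.

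Both precursor markers were weakly expressed. Pdgfra (chromosome 5, 75152292 to 75198215), the receptor for platelet-derived growth factor, measured 0.400, 0.725, 0.280 and 1.14 FPKM in the negative thalamus libraries and 0.0405, 0.0584, 0.109 and 0.0719 in the positive ones. In spinal cord, Pdgfra reached 1.44, 9.04, 3.14 and 4.27 FPKM in the negative libraries and 0.0999, 0.330, 0.340 and 0.238 in the positive ones. Positive libraries were lower without overlap in both regions, but near 0 the log2(FPKM + 1) scale understates a change. Pdgfra fell by 1.95 ± 0.32 (adjusted p 0.000547) in the spinal cord, and its thalamus difference was -0.58 ± 0.32 (adjusted p 0.195), or -1.98 with an adjusted p of 0.0176 at a pseudocount of 0.1. Its difference between the regions was -1.36 ± 0.45 (adjusted p 0.148). Cspg4, the NG2 proteoglycan, measured 3.07, 0.799, 2.16 and 1.03 FPKM in the negative thalamus libraries and 0.735, 0.547, 1.01 and 1.02 in the positive ones. In spinal cord, Cspg4 reached 2.97, 1.74, 3.13 and 4.08 FPKM in the negative libraries and 1.20, 1.75, 1.96 and 1.16 in the positive ones. These ranges overlapped, and the differences were -0.53 ± 0.26 (adjusted p 0.158) and -0.64 ± 0.26 (adjusted p 0.106).

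Enpp6 and Bcas1, which mark newly forming oligodendrocytes, were among the genes with the least left in positive cells. Enpp6 (chromosome 8, 46986887 to 47096762), a choline-specific phosphodiesterase, measured 90.3, 47.9, 30.7 and 23.6 FPKM in the negative thalamus libraries and 1.29, 1.69, 0.933 and 0.580 in the positive ones. In spinal cord, Enpp6 reached 269.5, 321, 217 and 194 FPKM in the negative libraries and 1.58, 0.901, 1.18 and 1.34 in the positive ones. The positive libraries of both regions sat near 1 FPKM, 2.34% and 0.4996% of the negative means. Enpp6 fell by 4.37 ± 0.33 (adjusted p 4.36e-07) in thalamus and fell by 6.78 ± 0.33 (adjusted p 3.89e-09) in spinal cord, the largest fall of the 32 genes in each region. Bcas1 (chromosome 2, 170346991 to 170427845), found in premyelinating cells, measured 41.7, 30.4, 38.6 and 47.2 FPKM in the negative thalamus libraries and 2.52, 2.25, 2.47 and 2.51 in the positive ones. In spinal cord, Bcas1 reached 191, 213, 189.8 and 206 FPKM in the negative libraries and 3.33, 3.40, 3.23 and 2.69 in the positive ones. The mice agreed closely and the groups were far apart. Bcas1 fell by 3.54 ± 0.14 (adjusted p 1.1e-09) and fell by 5.59 ± 0.14 (adjusted p 4.95e-12).

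Of the 10 myelin structure genes, 9 fell in thalamus and all 10 in spinal cord. Mbp (chromosome 18, 82475146 to 82585637), which holds the inner faces of the myelin membrane together, measured 199.5, 137, 295 and 262 FPKM in the negative thalamus libraries and 35.3, 27.2, 31.1 and 26.0 in the positive ones. In spinal cord, Mbp reached 816, 842, 1079.5 and 1061 FPKM in the negative libraries and 66.5, 67.5, 70.6 and 64.5 in the positive ones. The lowest negative library was well above the highest positive one in each region, yet the positive libraries were not near 0. Mbp fell by 2.81 ± 0.20 (adjusted p 3.38e-07) in thalamus and fell by 3.79 ± 0.20 (adjusted p 1.09e-08) in spinal cord. Cnp (chromosome 11, 100574904 to 100591729), the cyclic nucleotide phosphodiesterase of uncompacted myelin, measured 96.5, 90.7, 148 and 99.5 FPKM in the negative thalamus libraries and 29.3, 27.0, 27.2 and 22.1 in the positive ones. In spinal cord, Cnp reached 299, 275, 325 and 301 FPKM in the negative libraries and 32.5, 34.3, 34.4 and 30.7 in the positive ones. It kept 24.3% and 11.0% of the negative mean, and fell by 1.98 ± 0.15 (adjusted p 5.39e-07) and fell by 3.14 ± 0.15 (adjusted p 3.89e-09). Mobp (chromosome 9, 120149707 to 120181484), a small basic myelin protein, measured 74.8, 28.5, 100.2 and 76.9 FPKM in the negative thalamus libraries and 14.0, 8.25, 10.3 and 9.36 in the positive ones. In spinal cord, Mobp reached 259.6, 275, 253 and 291 FPKM in the negative libraries and 17.4, 17.1, 15.7 and 16.3 in the positive ones. Mouse 2 was low in the thalamus, and no groups overlapped within a region. Mobp fell by 2.52 ± 0.29 (adjusted p 2.38e-05) and fell by 3.94 ± 0.29 (adjusted p 2.48e-07).

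The other structural genes were also highest in negative spinal cord libraries. Cldn11, which seals the myelin sheath with tight junctions, went from 23.4 ± 9.91 to 1.31 ± 0.394 FPKM in thalamus and from 150.3 ± 32.5 to 1.24 ± 0.531 FPKM in spinal cord (SD, n = 4). Tspan2, a tetraspanin, went from 39.8 ± 18.3 to 2.86 ± 1.03 FPKM and from 144 ± 18.6 to 2.99 ± 0.360 FPKM, and Mal, a raft proteolipid, from 31.2 ± 20.5 to 2.02 ± 0.630 FPKM and from 122 ± 3.18 to 3.72 ± 0.748 FPKM. Gjc3, a connexin of oligodendrocytes and Schwann cells, kept 30.7% of its negative mean in thalamus and 2.56% in spinal cord, from 31.4 ± 8.61 to 9.64 ± 2.64 FPKM and from 139 ± 12.0 to 3.55 ± 0.276 FPKM. Mag and Mog, surface proteins of the sheath, had means of 9.03 and 9.08 FPKM in the negative libraries of the thalamus and 44.5 and 45.0 FPKM in those of the spinal cord. In positive libraries their means lay between 0.347 and 1.20 FPKM. Opalin (chromosome 19, 41061710 to 41077113), a membrane glycoprotein of mature cells, measured 0.553, 0, 1.24 and 1.38 FPKM in the negative thalamus libraries and 0.159, 0.0659, 0.245 and 0.0514 in the positive ones. In spinal cord, Opalin reached 2.47, 5.96, 2.32 and 3.86 FPKM in the negative libraries and 0.0525, 0.112, 0.117 and 0.0890 in the positive ones. Opalin was low in the thalamus, where the negative library of mouse 2 is listed at 0, and the groups were separate in the spinal cord. Opalin fell by 2.02 ± 0.27 (adjusted p 0.000115) in the spinal cord, and its thalamus difference was -0.59 ± 0.27 (adjusted p 0.13), which passed without the negative library of mouse 2 (adjusted p 0.0222).

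Of the 4 enzymes of myelin lipids, Fa2h and Ugt8a fell in both regions. Fa2h (chromosome 8, 111345135 to 111393824), the fatty acid hydroxylase of myelin galactolipids, measured 24.8, 6.80, 41.7 and 18.3 FPKM in the negative thalamus libraries and 1.25, 1.42, 1.13 and 0.859 in the positive ones. In spinal cord, Fa2h reached 64.7, 124, 171 and 151 FPKM in the negative libraries and 1.63, 1.52, 0.416 and 1.21 in the positive ones. Negative libraries varied by mouse but stayed above all positive ones. Fa2h fell by 3.23 ± 0.43 (adjusted p 8.99e-05) in thalamus and fell by 5.83 ± 0.43 (adjusted p 2.53e-07) in spinal cord. Ugt8a (chromosome 3, 125865271 to 125938619), which makes galactosylceramide, measured 30.9, 12.7, 29.04 and 16.3 FPKM in the negative thalamus libraries and 3.18, 1.64, 3.00 and 1.46 in the positive ones. In spinal cord, Ugt8a reached 119, 131, 116 and 127 FPKM in the negative libraries and 2.58, 1.92, 2.29 and 2.48 in the positive ones. The positive groups of both regions had the same mean, 2.32 FPKM. Ugt8a fell by 2.76 ± 0.26 (adjusted p 3.9e-06) and fell by 5.23 ± 0.26 (adjusted p 4.52e-09).

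Aspa (chromosome 11, 73304992 to 73329596), which splits N-acetylaspartate into acetate and aspartate, did not follow the other enzymes. Aspa measured 12.2, 18.6, 17.7 and 10.3 FPKM in the negative thalamus libraries and 21.2, 14.6, 21.9 and 15.9 in the positive ones. In spinal cord, Aspa reached 69.6, 26.1, 34.7 and 50.5 FPKM in the negative libraries and 56.4, 46.1, 35.9 and 37.2 in the positive ones. The groups overlapped within each region. The differences were 0.32 ± 0.28 (adjusted p 0.432) in the thalamus, with a 95% interval of -0.28 to 0.92, and 0.03 ± 0.28 (adjusted p 0.958) in the spinal cord, with an interval of -0.57 to 0.63. Gal3st1, which adds the sulfate of sulfatide, was too low for the filter. Gal3st1 measured 0.380, 0.280, 0.161 and 0.536 FPKM in the negative thalamus libraries and 0.230, 0.134, 0.0585 and 0.143 in the positive ones. In spinal cord, Gal3st1 reached 4.90, 0.491, 6.19 and 3.57 FPKM in the negative libraries and 0.109, 0, 0.0938 and 0.0447 in the positive ones, where mouse 2 is listed at 0. A two-sided exact permutation test of 4 against 4 libraries gave p = 0.0571 for the thalamus and p = 0.0286 for the spinal cord, the smallest that it can give.

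Of the 6 cytoskeleton and signalling genes, Tubb4a, Plekhb1 and Ermn fell in thalamus and all 6 fell in spinal cord. Tubb4a (chromosome 17, 57080066 to 57087782), a beta tubulin abundant in oligodendrocytes and neurons, had the highest mean of the 33 genes over all libraries. Tubb4a measured 293, 181, 248 and 208 FPKM in the negative thalamus libraries and 19.99, 13.0, 17.5 and 14.1 in the positive ones. In spinal cord, Tubb4a reached 1057, 1147, 1128 and 976 FPKM in the negative libraries and 27.8, 22.2, 21.3 and 16.5 in the positive ones. Negative libraries stood far above positive ones, with the spinal cord highest. Tubb4a fell by 3.76 ± 0.19 (adjusted p 1.01e-08) and fell by 5.57 ± 0.19 (adjusted p 9.62e-11). Plekhb1 (chromosome 7, 100642892 to 100662414), a membrane protein with a pleckstrin homology domain, measured 32.5, 39.1, 79.4 and 74.8 FPKM in the negative thalamus libraries and 17.1, 14.4, 16.0 and 15.5 in the positive ones. In spinal cord, Plekhb1 reached 141, 209, 194 and 199 FPKM in the negative libraries and 102, 96.4, 92.4 and 79.5 in the positive ones. Groups were separate in both regions, and the positive spinal cord libraries were above the negative thalamus ones. Plekhb1 fell by 1.68 ± 0.25 (adjusted p 0.000225) in thalamus and fell by 0.99 ± 0.25 (adjusted p 0.0111) in spinal cord, a call lost when mouse 2, 3 or 4 was left out (0.0583 to 0.0797). Ermn, a cytoskeletal protein of myelinating cells, went from 9.65 ± 3.15 to 2.57 ± 0.598 FPKM in thalamus and from 48.3 ± 3.91 to 2.64 ± 0.178 FPKM in spinal cord (SD, n = 4).

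Dusp15, Lims2 and Tmem88b were called in the spinal cord and not in the thalamus. Dusp15 (chromosome 2, 152940997 to 152951698), a protein phosphatase, measured 13.9, 3.38, 1.97 and 7.29 FPKM in the negative thalamus libraries and 2.08, 1.97, 2.51 and 2.33 in the positive ones. In spinal cord, Dusp15 reached 28.7, 32.3, 32.4 and 28.1 FPKM in the negative libraries and 0.183, 0.547, 0.988 and 0.528 in the positive ones. The thalamus groups overlapped through mouse 3, and those of the spinal cord were far apart. Dusp15 fell by 4.35 ± 0.37 (adjusted p 1.12e-06) in the spinal cord, and its thalamus difference was -0.98 ± 0.37 (adjusted p 0.0655), which passed without the negative library of mouse 2 (0.0453) or of mouse 3 (0.0083). Lims2 (chromosome 18, 31922290 to 31958619), an adaptor of focal adhesions, measured 2.29, 0.435, 2.70 and 2.75 FPKM in the negative thalamus libraries and 0.372, 0.510, 0.162 and 0.203 in the positive ones. In spinal cord, Lims2 reached 15.6, 2.60, 20.1 and 15.3 FPKM in the negative libraries and 0.0375, 0.234, 0.425 and 0.218 in the positive ones. Mouse 2 was the lowest negative library in both regions, and the groups overlapped through it in the thalamus. Lims2 fell by 3.29 ± 0.46 (adjusted p 0.000141) in the spinal cord, and its thalamus difference was -1.12 ± 0.46 (adjusted p 0.0863), which passed without the negative thalamus library (0.0325) or the negative spinal cord library (0.00857) of mouse 2. Tmem88b (chromosome 4, 155781591 to 155785874) measured 10.9, 5.19, 8.03 and 13.5 FPKM in the negative thalamus libraries and 6.21, 3.90, 6.86 and 6.22 in the positive ones. In spinal cord, Tmem88b reached 36.2, 65.2, 45.2 and 64.3 FPKM in the negative libraries and 9.16, 7.82, 9.76 and 10.3 in the positive ones. Mouse 2 was again the lowest of the negative thalamus libraries. Tmem88b fell by 2.35 ± 0.26 (adjusted p 1.88e-05) in the spinal cord, and its thalamus difference was -0.56 ± 0.26 (adjusted p 0.131), which passed without that library (adjusted p 0.03). The difference between the regions was called for Dusp15 and Tmem88b and not for Lims2, as given below with the test of that difference.

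Some members share exon bases with a gene on the opposite strand, and strand use in the counting is not stated, so reads of such pairs cannot be told apart. Gpr17 lies inside Lims2 and shares 188 exon bases with it, 3.62% of the Gpr17 exons and 6.14% of those of Lims2. Opposite-strand genes also cover 12.9% of the Nkx6-2 exons (Inpp5a), 11.7% of those of Bcas1 (Bcas1os1) and 9.67% of those of Nkx2-2 (Nkx2-2os). The shares were 7.26% for Olig1 (Gm15966), 6.52% for Ermn (Galnt5), 4.55% for Pdgfra (Gm42802) and 4.23% for Cnp (Dnajc7).

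**Figure D3:**
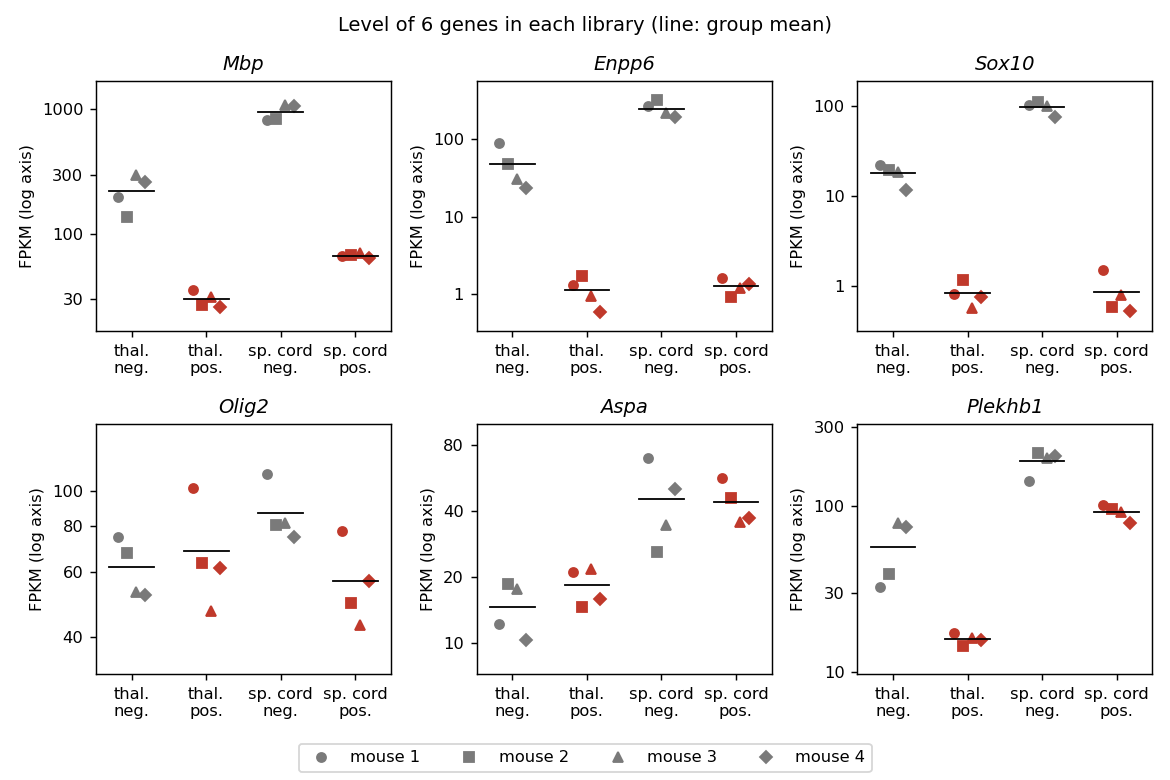
FPKM of 6 genes in each library on log axes, grey for negative and red for positive libraries, 1 symbol per mouse and a line at each group mean. Mbp, Enpp6 and Sox10 are separate between negative and positive libraries, Olig2 and Aspa overlap, and Plekhb1 is higher in positive spinal cord libraries (92.5 FPKM) than in negative thalamus ones (56.4 FPKM).

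The second question was whether the difference between positive and negative cells was itself unlike in the 2 regions. The interaction term of the fit was lower than 0, meaning a deeper fall in the spinal cord, for 18 of the 32 genes and higher for 0, with 27 and 0 at an unadjusted p under 0.05 (limma). Over all features 1.43% were lower and 1.13% higher. The median of the 32 was -1.84, beside 0.02 over all features. The 18 included Sox10 and Myrf among the transcription factors, Gpr17 and Lpar1 among the receptors, and both newly forming genes. They also included Mag, Mog, Cnp, Cldn11, Tspan2 and Gjc3 of the myelin structure group, Fa2h and Ugt8a, and Ermn, Tubb4a, Dusp15 and Tmem88b. Dusp15 (-3.37 ± 0.52 (adjusted p 0.00286)) and Gjc3 (-3.34 ± 0.27 (adjusted p 8.12e-06)) had the largest difference, and that of Bcas1 was -2.05 ± 0.20 (adjusted p 5.17e-05). Mbp did not pass, at -0.97 ± 0.29 (adjusted p 0.102) with a 95% interval of -1.59 to -0.36, nor did Mobp, at -1.42 ± 0.41 (adjusted p 0.0884). Plekhb1 had the opposite sign, at 0.69 ± 0.35 (adjusted p 0.387). The number called was 9 when mouse 2, mouse 3 or mouse 4 was left out, and Fa2h missed the threshold with the mouse as a block (0.0681). Fa2h passed in only 10 of 29 alternative settings, with a limma adjusted p of up to 0.229, and Tspan2 in 17, with up to 0.176. The other called genes passed in 24 or more.

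The third question was how the regions differed within each sort. In negative libraries 27 of the 32 genes were higher in the spinal cord and 0 lower (30 and 0 at an unadjusted p under 0.05, limma), where 5.27% of all features were higher and 4.54% lower. The median difference was 2.17, beside 0.00 over all features, and the spinal cord mean was 4.60 times the thalamus mean in the median gene. The spinal cord library was the higher one in all 4 mice for 31 of the 33 genes, and 27 were higher without overlap between regions, where 5.05% of all features were higher and 4.01% lower in that way. Bcas1 differed by 2.33 ± 0.14, Sox10 by 2.40 ± 0.22, Mbp by 2.13 ± 0.20 and Tubb4a by 2.23 ± 0.19, with adjusted p of 7.87e-08, 5.98e-06, 9.43e-06 and 2.65e-06. The genes that did not pass were Olig1, Olig2, Nkx2-2, Nkx6-2 and Cspg4, with differences of -0.34 to 0.94. Pdgfra, Opalin and Lims2 passed, but entered the test only through the negative spinal cord libraries. Fitting the 8 negative libraries alone, 18 genes were higher and 0 lower, where 1.32% and 0.845% of all features were. These comparisons share their negative libraries with those between positive and negative cells, so that they are not separate evidence.

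In positive libraries 4 of the 32 genes were higher and 2 lower in the spinal cord, where 4.22% and 1.88% of all features were. The median difference was 0.06, beside 0.00 over all features. Plekhb1 was higher by 2.48 ± 0.25 (adjusted p 1.81e-05), and its positive libraries did not overlap between regions. Mbp was higher by 1.15 ± 0.20 (adjusted p 0.00304), with every spinal cord library between 64.5 and 70.6 FPKM and every thalamus one between 26.0 and 35.3 FPKM. Gjc3 was lower by 1.20 ± 0.19 (adjusted p 0.00128), at 7.68 to 13.5 FPKM in thalamus and 3.29 to 3.94 FPKM in spinal cord. Aspa was higher by 1.21 ± 0.28 (adjusted p 0.0177), Olig1 higher by 0.79 ± 0.20 (adjusted p 0.029) and Lpar1 lower by 0.72 ± 0.19 (adjusted p 0.0336). Each of these last calls was lost when 1 of several positive libraries was left out, with adjusted p of up to 0.0683, 0.0974 and 0.122. Over all 30 alternative settings they held in 23, 18 and 18, with limma adjusted p of up to 0.111, 0.148 and 0.289. Counted by overlap alone, 10 of the 33 genes were higher and 4 lower, these 6 included, where 15.5% and 14.1% of all features were. Fitting the 8 positive libraries alone, 7 were higher and 4 lower, and the shares of all features rose to 13.8% and 12.1%.

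**Figure D4:**
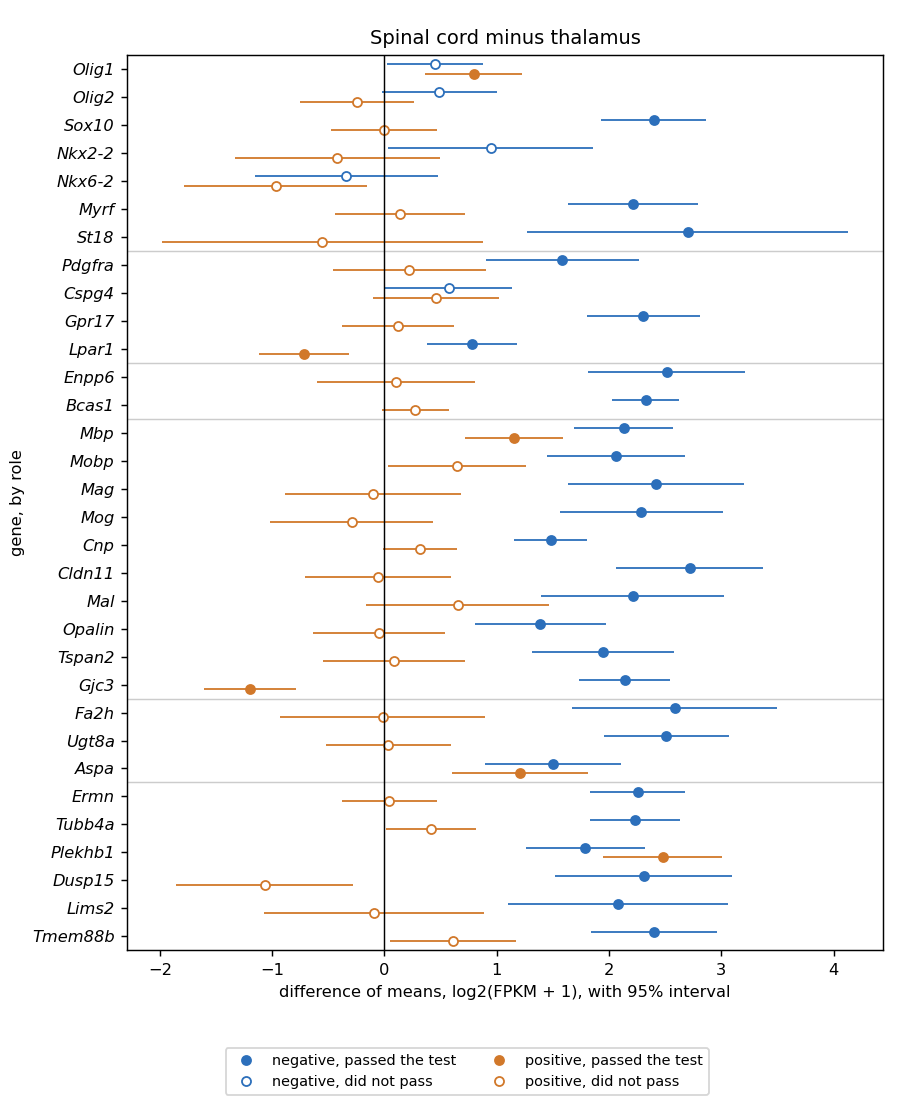
Difference of spinal cord minus thalamus for the 32 tested genes, as log2(FPKM + 1) with the 95% interval, for negative and positive libraries and filled where the test was passed. In negative libraries 27 genes lie right of 0 and pass, while in positive libraries most points lie around 0 and 6 pass.

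The spread between mice was not the same in every group. The median coefficient of variation of the 33 genes was 42.9% in the negative and 29.1% in the positive thalamus libraries, while the spinal cord ones gave 18.0% and 22.7%. Mouse 2 gave the lowest negative thalamus value for 19 of the 33 genes and mouse 1 the highest for 14. The summed FPKM of the 33 genes was 946 to 1608 in the negative and 302 to 439 in the positive thalamus libraries. It was 4748 to 5136 in the negative and 513 to 621 in the positive spinal cord libraries, so that none of the groups overlapped. Olig1 and Olig2 made up a large part of what remained in positive cells, at means of 103 and 68.6 FPKM in the thalamus and 177 and 56.8 FPKM in the spinal cord. In positive spinal cord libraries Plekhb1 (92.5 FPKM) and Mbp (67.3 FPKM) had higher means than Olig2.

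A list of 45 other genes of the lineage had 43 in the table and 40 that could be tested. In the thalamus 23 fell and 1 rose, and in the spinal cord 31 fell and 2 rose, with medians of -0.93 and -2.14. Sirt2, a deacetylase abundant in myelin, fell by 1.94 ± 0.21 (adjusted p 1.25e-05) in thalamus and fell by 2.82 ± 0.21 (adjusted p 2.5e-07) in spinal cord. Tcf7l2, a factor of newly forming cells, fell by 0.88 ± 0.14 (adjusted p 0.000441) and fell by 1.80 ± 0.14 (adjusted p 5.19e-07), and was lower in the spinal cord in both sorts. Car2, a carbonic anhydrase, fell by 0.77 ± 0.19 (adjusted p 0.00782) in thalamus and differed by -0.10 ± 0.19 (adjusted p 0.744) in the spinal cord. The genes that rose were Itpr2 in thalamus and Gpr37 and Cdh19 in spinal cord.

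Some markers of other cells also differed with the sort. Among all features tested, 13.6% were lower and 11.6% higher in positive thalamus libraries. In positive spinal cord libraries the shares were 10.5% and 9.04%. All 10 ependymal genes fell in both regions, with medians of -4.99 in thalamus and -2.39 in spinal cord. Their sum was 339 to 625 FPKM in the negative and 6.93 to 8.61 FPKM in the positive thalamus libraries, and 113 to 160 FPKM and 3.98 to 6.74 FPKM in the spinal cord, with 7 and 5 of the 10 under 1 FPKM in every positive library. Cfap54 and Enkur, genes of motile cilia, had the highest means, at 138 and 74.5 FPKM in negative thalamus libraries. These genes were highest in the thalamus, where all 10 had higher means than in the spinal cord among negative libraries and 8 of them passed the test. Of all features, 4.54% were lower in the negative spinal cord libraries. Of the astrocyte genes, 2 of 15 (Gfap and Aldoc) were lower and 3 higher in positive thalamus libraries, and 1 (Gfap) was lower and 7 higher in those of the spinal cord. Gfap, an intermediate filament gene named after its values were seen, went from 66.2 ± 38.5 to 4.46 ± 0.940 FPKM in thalamus and from 142 ± 38.5 to 47.3 ± 2.76 FPKM in spinal cord. The 2 astrocyte genes with the highest means passed the test in the spinal cord and not in the thalamus. Atp1b2, a sodium pump subunit, was at 3876 ± 139.9 FPKM in negative libraries of the spinal cord against 6586 ± 541 FPKM in positive ones, and in the thalamus at 2532 ± 531 against 2268 ± 305 FPKM. Slc1a2, a glutamate transporter, was at 2079.9 ± 28.5 against 2946 ± 113 FPKM and at 1574 ± 227 against 1527 ± 191 FPKM in the same order.

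Of 7 tested neuron genes 4 fell in thalamus and 1 in spinal cord, with Snap25 at 43.7 ± 19.5 FPKM in the negative and 7.90 ± 2.05 FPKM in the positive thalamus libraries and Nefl at 5.86 ± 4.11 and 1.59 ± 0.238 FPKM. Of 10 vascular genes, Cspg4 among them, 2 fell in thalamus and 5 in spinal cord, and Rgs5 was at 56.3 ± 18.5 FPKM in the negative and 6.04 ± 1.94 FPKM in the positive spinal cord libraries and Pecam1 at 4.13 ± 1.80 and 2.08 ± 0.290 FPKM. The summed neuron list was 45.4 to 95.8 FPKM in the negative and 10.8 to 16.0 FPKM in the positive thalamus libraries, and 43.3 to 66.0 and 21.8 to 33.4 FPKM in the spinal cord ones. The summed vascular list was 72.7 to 103.8 and 13.1 to 16.5 FPKM in the thalamus, and 53.9 to 101.4 and 13.1 to 16.1 FPKM in the spinal cord. Rgs5 alone held most of the vascular sum in negative libraries, at 68.3 FPKM in the thalamus against 5.43 FPKM in positive ones. The fall of that sum is therefore mainly that of Rgs5. Snap25 was the largest part of the neuron sum. Of 8 tested microglia genes 1 fell in thalamus and 2 in spinal cord, and P2ry12 was at most 7.46 FPKM in any library. The counts of the astrocyte, neuron, vascular and microglia lists were small and were not tested against the shares of all features given above. The part of these cell types in the results for the oligodendrocyte genes was not tested. Schwann cells also express Sox10, Mbp and Gjc3. Of 4 tested Schwann cell genes 1 rose in the spinal cord, and the summed list was 8.21 to 22.8 FPKM in every group. Drp2 and Cldn19 had the highest means of that list, at 10.8 and 1.38 FPKM over all libraries.

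The authors' deposited table of positive against negative libraries lists 444 genes with adjusted p up to 0.00976. None of the 33 genes, and 0 of the other lineage genes, is among them, while 8 of the 10 ependymal genes and 4 of the 15 astrocyte genes are. The rule that selected its rows is not stated in the file or the labels.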

How the data were processed

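Astrocytes sorted by an IL-33 reporter from the thalamus and spinal cord of 4 mice gave 16 libraries in 4 groups. Per the labels' protocols, a Qiagen micro kit isolated the RNA and a NuGEN kit amplified it into libraries. Tools named in the submitters' processing notes, with no role for each, are the aligners TopHat2 2.0.11 and Bowtie2 2.2.3, then HTSeq 0.6.1p1, Cufflinks and Cuffnorm, and also DESeq2 and FastQC, on build GRCm38. The authors deposited FPKM values for 39171 features, of which 15208 of the 16252 without a symbol were named by identifier from the reference table. The authors' deposited comparison table gives a log2 fold change, a test score and an adjusted p-value for each listed gene. Depth is unknown: the most common ratio between 2 libraries at low values held at most 0.447% of genes over 11 pairs of libraries, so that no whole-read steps were found, no counting interval is given, and precision comes from the 4 mice alone.

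Features that reached 1 FPKM in 4 or more libraries, 16340 in all, were fitted with limma 3.58.1 (R 4.3.3) on log2(FPKM + 1), with a trended prior and 1 coefficient per group over all 16 libraries. A change on this scale understates that of weakly expressed genes. The same fit gave the 5 comparisons: positive against negative in each region, the difference of these, and spinal cord against thalamus in each sort. A call needs an adjusted p under 0.05 (Benjamini-Hochberg, over all features tested). Of the 33 genes, 32 passed the filter, of which Pdgfra, Opalin and Lims2 did so only through the negative spinal cord libraries. Gal3st1 did not pass and had a two-sided exact permutation test. Coordinates are those of GENCODE vM21 on GRCm38, and upstream sequences those of a RefSeq table.

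Per the labels a mouse number stands for 1 animal in all groups, so the numbers pair the samples. Correlations of the deviations of paired libraries from their groups averaged 0.036 over 24 same-mouse pairs and -0.012 over 72 others. The members and gene lists were chosen with earlier results of these data known. Per-library values are given for the 3 members of each role with the highest mean, and for members called in 1 region or of opposite sign in both. Of the other lineage genes the 4 with the highest mean were chosen, and of each cell type list the 2, of which some are not reported here. Alternatives were other pseudocounts (0.1 and 5), filters, scalings, priors, the mouse as a block, the compared groups alone, and leaving out each library or mouse. Leaving out both negative libraries of mouse 1 was added after seeing the data. 0 pairs of libraries were identical.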

Additional observations from a re-analysis of the deposited data

Results flagged for a closer look

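The fall in positive cells differed between the regions for 18 genes by the interaction term of the limma fit, with a deeper fall in the spinal cord in each (spinal cord minus thalamus, log2 scale). The difference was -3.37 for Dusp15, -3.34 for Gjc3, -2.78 for Cldn11, -2.60 for Fa2h and -2.58 for Mog. It was -2.52 for Mag, -2.48 for Ugt8a, -2.41 for Enpp6, -2.40 for Sox10, -2.21 for Ermn and -2.18 for Gpr17. It was -2.08 for Myrf, -2.05 for Bcas1, -1.86 for Tspan2, -1.81 for Tubb4a, -1.79 for Tmem88b, -1.498 for Lpar1 and -1.16 for Cnp. Over the 33 genes the median ratio of spinal cord to thalamus means was 4.60 in negative and 1.03 in positive libraries.

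A single library stood apart from the other 3 of its group in 3 of the 132 groups of 4 values examined (2.27%), where chance gives about 1 in 20 by the same measure. Gpr17 was at 7.27 FPKM in the negative thalamus library of mouse 1, below the other 3. Mog was at 2.88 FPKM in the positive thalamus library of mouse 1, above the other 3. Cnp was at 148 FPKM in the negative thalamus library of mouse 3, above the other 3. The causes were not tested.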

How the results depend on the processing

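The counts of members lower in positive libraries were 21 to 24 in the thalamus and 24 to 28 in the spinal cord over the settings that kept all libraries, and 21 to 26 and 25 to 28 with a library or mouse left out. With the mouse as a replicate block they were 22, 28 and 17 (difference between regions), and 27 higher in negative and 4 higher and 2 lower in positive libraries between regions. The block changed the call of Olig2 in the spinal cord (adjusted p 0.01) and of Fa2h in the difference (0.0681) and no other call of a member. Leaving out a library or mouse gave 9 to 21 members in the difference between regions, 23 to 28 higher in negative libraries, and 1 to 3 lower and 2 to 5 higher in positive libraries. Between positive libraries, 1 was lower at a pseudocount of 5, 4 were lower with both negative libraries of mouse 1 left out, and 4 were lower and 7 higher when the compared groups were fitted alone, where the shares of all features also rose, to 12.1% and 13.8%. Between negative libraries 1 was lower with both negative libraries of mouse 1 left out. Scaling libraries to equal sums without mitochondrial transcripts moved the median of all features by 0.19 in the thalamus, -0.13 in the difference and -0.10 between positive libraries, and the share of lower among all calls from 54.1% to 34.4%, from 56.0% to 69.0% and from 30.8% to 47.3%. The members called were then 21, 18 and 2 lower and 3 higher. The count of all features called ran from 2249 to 5422 in the thalamus, 1861 to 3906 in the spinal cord, 129 to 904 in the difference, 353 to 1883 between negative and 368 to 4227 between positive libraries.

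Reversals of sign touched differences that had not passed the test. With both negative libraries of mouse 1 left out, Nkx6-2 was at -0.22 in the thalamus, and the difference was 0.01 for Aspa (0.01154) and 0.02 for Nkx6-2 (0.01566). Between positive libraries, equal sums gave -0.06 for Ermn (-0.06175), -0.02 for Tspan2 (-0.02153) and -0.06 for Ugt8a (-0.0607), and a pseudocount of 5 gave 0.0023 for Sox10 and 0.0028 for Fa2h. Leaving out a library or mouse gave ranges that crossed 0: in the thalamus -0.65 to 0.026 for Nkx2-2, -0.10 to 0.27 for Olig2 and -0.24 to 0.40 for Nkx6-2. They were -0.23 to 0.26 for Aspa in the spinal cord, -0.32 to 0.26 for Cspg4 and -0.97 to 0.18 for Nkx6-2 in the difference, and -0.99 to 0.10 for Nkx6-2 between negative libraries. Between positive libraries they were -0.23 to 0.0068 for Lims2, -0.050 to 0.16 for Ermn, -0.11 to 0.23 for Tspan2, -0.12 to 0.16 for Ugt8a and -0.16 to 0.15 for Sox10. They were also -0.12 to 0.18 for Fa2h, -0.21 to 0.10 for Cldn11, -0.054 to 0.30 for Enpp6, -0.082 to 0.0016 for Opalin and -0.54 to 0.093 for Mog. The cause was not tested. Depth is unknown, so genes near 0 in positive libraries, such as Gal3st1, Pdgfra and Opalin, have no counting error here.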
